A study of Mus musculus with 6 samples.

Results

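The zinc finger gene cluster of mouse chromosome 2 was followed gene by gene and transcript by transcript in forebrain RNA of 6 mice at postnatal day 20 (P20). Its members were the protein-coding genes of the GENCODE M21 annotation (GRCm38) that lie on chromosome 2 between 174500000 and 178500000 and whose symbol begins with Gm or Zfp or ends in Rik. The annotation holds 46 such genes, and 44 of them, with 115 transcripts, were among the 35523 genes measured. The cluster itself was selected on the estimated counts of its transcripts in these same mice, Slc13a4+/- against wild-type, with the reads of Gm14325 in view. The comparison of genotypes below is therefore a description and gives no independent evidence. Total RNA of the whole forebrain was sequenced from 3 Slc13a4+/- mice (Het_1024, Het_1025 and Het_1027), which carry a single intact allele of the sulfate transporter gene Slc13a4, named Nas2Del +/- Het by the submitters. The controls were 3 wild-type mice (WT_1016, WT_1018 and WT_1026), and all 6 mice were C57BL/6. The study names the wild-type mice as littermates from crosses of Slc13a4+/- males with wild-type females, and the allele is carried by every cell of the animal. The 76-base paired reads were assigned to transcripts by Salmon, and the estimated counts summed to 60340337 to 80410582 per mouse.

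Of the markers fixed for the tissue, the 6 forebrain genes had mean levels between 23.3 and 871 CPM (counts per 1000000 counts of the mouse, after TMM normalization), and the 4 hindbrain and cerebellar genes had at most 0.754 CPM. Slc13a4 itself was at 5.61, 6.57 and 5.41 CPM in the Slc13a4+/- mice and at 10.4, 9.36 and 8.23 CPM in the wild-type mice, with no overlap between the genotypes. The Y-linked gene Ddx3y was at 105 CPM in mouse WT_1016 and at no more than 0.0331 CPM in the other 5 mice. Neither the labels nor the paper state the sex of the animals.

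Genes of this kind encode KRAB zinc finger proteins. An array of C2H2 zinc fingers binds DNA, each finger held by a zinc ion, and the KRAB domain at the other end of the protein binds the corepressor TRIM28, which brings in histone methyltransferases and silences the site. Many such proteins bind transposable elements, and their genes arise by tandem duplication and lie in clusters of close copies. Roles of the single members here are mostly not known, so they are described by their sequence.

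The exon that encodes the KRAB A box shows how close the copies are. An exon of 127 bases was found in 42 of the 44 members, and it differed from that of Gm14325 at 3 to 13 positions (median 6). The 42 exons had 19 distinct sequences, and 8 members (Gm4631, Gm4724, Gm11007, Gm2026, Gm14434, Gm14308, Gm14305 and Gm14410) had one and the same sequence. The exons of 5 members are shown 5′ to 3′ on the coding strand, with capitals for bases that differ from Gm14325. They were read from the GENCODE M21 transcripts at chr2:177834520-177834646 (Gm14325, minus strand), chr2:177948437-177948563 (Gm14326, minus), chr2:175327472-175327598 (Gm4631, minus), chr2:175197807-175197933 (Gm14391, minus) and chr2:177921689-177921815 (Zfp972, minus).
Gm14325: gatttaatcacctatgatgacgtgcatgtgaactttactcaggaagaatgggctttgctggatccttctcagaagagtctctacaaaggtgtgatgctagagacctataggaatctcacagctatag
Gm14326: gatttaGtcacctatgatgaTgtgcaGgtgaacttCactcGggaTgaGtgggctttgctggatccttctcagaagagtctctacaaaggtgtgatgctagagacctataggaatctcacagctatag
Gm4631: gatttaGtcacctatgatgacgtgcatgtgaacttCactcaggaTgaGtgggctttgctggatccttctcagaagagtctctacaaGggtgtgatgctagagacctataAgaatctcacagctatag
Gm14391: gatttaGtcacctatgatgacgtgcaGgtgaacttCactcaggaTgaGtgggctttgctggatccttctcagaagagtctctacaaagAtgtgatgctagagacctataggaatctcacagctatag
Zfp972: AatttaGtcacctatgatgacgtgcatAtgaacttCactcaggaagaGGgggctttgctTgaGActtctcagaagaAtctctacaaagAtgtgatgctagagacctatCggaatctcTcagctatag

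The exon of Gm14326 is also that of Gm14399, and it differed from Gm14325 at 7 positions. Zfp972 was the most distant, with 13 differences. The members without the exon were Zfp831, which has no KRAB pattern and 1 zinc finger pattern in a protein of 1628 residues, and Gm14409. In protein translated from the annotated coding sequences, 42 members held a KRAB A box pattern and 31 held at least 1 C2H2 finger in a transcript of the files, with a median of 11 fingers and up to 25 in Gm14295. Gm14325 encodes 498 residues with 14 fingers.

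The finger part is shared as well. The coding stretch of 76 bases, the length of a read, that is held by the largest number of members lies at chr2:177832426-177832501 in Gm14325 (minus strand). It was present letter for letter in 14 of the 44 members. It is shown because a read that falls in it cannot be given to any of these 14 genes by its own sequence, without its mate.
Gm14325: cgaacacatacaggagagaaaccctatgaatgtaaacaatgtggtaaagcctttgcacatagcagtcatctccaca

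The likeness reaches beyond the transcripts. RefSeq promoter sequences (GRCm38.p6) were held for 29 members. The longest run shared by at least 24 of them within the 250 bases before the gene start had 54 bases. It was picked from these same members, so the number 24 is a setting and not a result. Of 27025 genes with a promoter sequence, 26 held that run on either strand (0.0962%), and the other two were Gm2007 and Zfp967, the rule's genes that the files do not list. The run is in capitals in stretches of 3 members whose levels are described below, at chr2:177840368-177840477 for Gm14325, chr2:175206925-175207021 for Gm14391 and chr2:175931120-175931229 for Zfp966, all on the minus strand. It contains CCAAT, the core of a common promoter element. The letters CCAAT stood on either strand in 27 of the 29 member promoters (93.1%), most of them through this run, and in 37.5% of all promoters.
Gm14325: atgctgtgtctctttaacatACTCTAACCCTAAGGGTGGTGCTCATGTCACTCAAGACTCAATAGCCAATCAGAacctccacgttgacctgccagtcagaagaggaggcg
Gm14391: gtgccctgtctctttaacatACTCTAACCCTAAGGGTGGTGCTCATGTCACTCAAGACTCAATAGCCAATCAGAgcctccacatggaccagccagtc
Zfp966: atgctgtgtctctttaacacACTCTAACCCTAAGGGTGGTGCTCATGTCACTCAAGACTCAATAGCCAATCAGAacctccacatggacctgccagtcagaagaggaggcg

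Over whole transcripts, a median of 72.3% of a member's distinct 76-base stretches occurred in another member. For 28 of the 44 members (63.6%) more than 50% of the stretches were shared with another protein-coding gene, against 16 of 386 Zfp genes elsewhere (4.15%), 0 of the 6 other protein-coding genes of the window and 5.88% of 21683 protein-coding genes. Zfp831 shared none, whereas all stretches of Gm14440, Gm11007, Zfp969 and Gm11009 were found in other members. Gm14325 had 57.3% of its stretches in Gm14326 and 55.6% in Gm14399, its closest copies, while 30.2% of them were its own.

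Some copies were identical over a whole transcript. The annotation has 18 transcripts of these genes that the files do not list, and each had the same sequence as a listed transcript of another gene. A transcript of 1497 bases stood under Gm4724 and was also that of Gm11007, Gm14434, Gm2007 and Gm2026. A transcript of 1665 bases stood under Gm14391 and was also that of Gm6710. Zfp967 and Gm2007 had no transcript of their own in the files for this reason. A read from such a sequence could therefore not be booked to the unlisted transcript, whichever copy it came from. It was open to the listed transcript and to any other listed transcript that holds the same stretch. The listed transcript of Gm4724 with 1497 bases was at 0 counts in every mouse. That of Gm14391 with 1665 bases was at 0 in mouse WT_1016 and at 279 to 403 counts in the others.

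The members were expressed at low to moderate levels. In TPM (transcripts per 1000000), which are corrected for length and can be set side by side between genes, the 39 members above 0 ran from 0.565 TPM (Gm14406) to 81.1 TPM (Gm14325), with a median of 21.7 TPM. Gm14305 had 79.7 TPM, Gm4631 70.7 TPM, Gm2026 70.2 TPM, Gm14295 51.4 TPM, Gm14326 49.95 TPM, Gm14410 40.7 TPM and Gm14391 37.4 TPM. Gm14325 stood first through a transcript of 310 bases with 61.1 TPM, whose effective length was 161 bases. Gm14440, Gm11007, Zfp969, Gm11009 and Gm14408 were listed at 0 in all 6 mice. The first 4 of these share all of their stretches with other members and the fifth shares 81.5%, so 0 counts do not show that a gene was silent. The other 39 members all passed the filter on low counts.

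Gm14325 (ENSMUSG00000095362) lies at chr2:177831791-177840336 on the minus strand. Its level was 19.6, 19.0 and 18.8 CPM in mice Het_1024, Het_1025 and Het_1027 and 16.1, 18.8 and 16.97 CPM in mice WT_1016, WT_1018 and WT_1026. The genotypes did not overlap, but the lowest Slc13a4+/- mouse and the highest wild-type mouse were almost level. This is a log2 fold change of 0.15 (SE 0.06). The quasi-likelihood test of edgeR gave an adjusted p of 0.530. DESeq2 with average transcript lengths as offsets gave one of 0.865.

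Within Gm14325 the division of reads between transcripts differed between the genotypes. ENSMUST00000188914, of 1494 bases and called the short form here, had 614, 725 and 550 estimated counts in Slc13a4+/- mice, whereas all 3 wild-type mice had 0. ENSMUST00000108939, of 1576 bases and called the long form, had 497, 253 and 506 counts in the Slc13a4+/- mice and 772, 832 and 997 in the wild-type mice. Neither form overlapped between the genotypes, and they moved in opposite directions. The third transcript, ENSMUST00000150650 of 310 bases, held 411, 337 and 347 counts against 297, 301 and 327. After TMM normalization over transcripts it was at 5.31, 4.75 and 4.61 CPM against 4.54, 5.01 and 4.25 CPM, which overlapped.

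The 2 forms are nested: the long form carries 82 bases at its 5′ end that the short form lacks, and every further base is the same. The extra exon holds the start codon and 79 bases before it. The start codon, at chr2:177840237-177840239, is in capitals ahead of the exon that follows it, where the short form begins. Only reads or mates that reach into the 82 bases can favour the long form.
Gm14325: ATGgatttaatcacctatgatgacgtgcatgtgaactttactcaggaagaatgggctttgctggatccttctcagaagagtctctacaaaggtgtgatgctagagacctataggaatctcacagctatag

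The shift between them was large and their sum was not. The short form took 55.2%, 74.1% and 52.1% of the counts of the pair in the Slc13a4+/- mice and 0% in the wild-type mice. Together the pair had 14.4, 13.8 and 14.0 CPM in the Slc13a4+/- mice and 11.8, 13.8 and 12.97 CPM in the wild-type mice. These sums, normalized over transcripts, had a log2 ratio of means of 0.13. They overlapped only in that mouse Het_1025 (13.78 CPM) lay below mouse WT_1018 (13.85 CPM). With the TMM factors over genes, used for the gene levels, the sums of the pair did not overlap. Of 32679 transcripts that reached 100 counts in a mouse, 12 (0.0367%) were at 0 in one genotype and at 100 or more in every mouse of the other, and the short form of Gm14325 was the cluster's only one. Over 54721 transcripts edgeR's quasi-likelihood test called 0% and no member transcript at an adjusted p under 0.1, with 4 member transcripts and 4056 of all at an unadjusted p under 0.05. DESeq2 called both forms of Gm14325, and no other of the cluster, among 64236 transcripts, of which it called 0.711%.

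**Figure D1:**
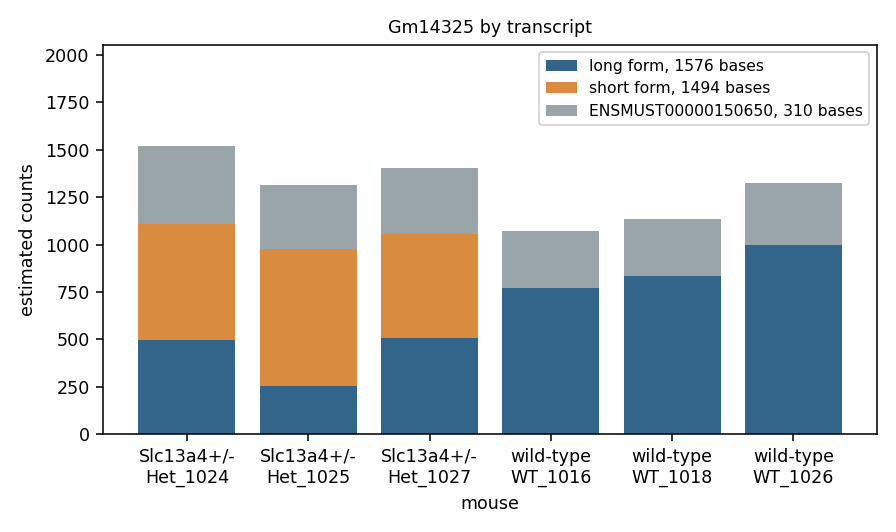
Estimated counts of the 3 transcripts of Gm14325 (y axis, stacked) in each mouse (x axis). The short form is present in the 3 Slc13a4+/- mice, with 550 to 725 counts, and at 0 in the 3 wild-type mice, while the third transcript stays between 297 and 411 counts.

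All-or-none transcripts were not confined to Gm14325 or to a genotype. Of 63 member transcripts that reached 100 counts in a mouse, 8 from 6 genes were at 0 in another (12.7%, against 6.61% of all such transcripts). Gm14322 (chr2:177759288-177770472, plus strand) showed the smallest difference in sequence. ENSMUST00000119838 and ENSMUST00000108942 differ by 3 bases, the start codon at chr2:177762898-177762900, shown in capitals.
Gm14322: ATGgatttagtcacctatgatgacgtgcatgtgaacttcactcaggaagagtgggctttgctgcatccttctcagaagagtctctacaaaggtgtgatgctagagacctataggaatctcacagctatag

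The longer one had 206 counts in mouse Het_1025 and 0 in the other 5 mice, where the shorter one had 211, 184, 144, 115 and 192 counts. It was at 0 in mouse Het_1025. Here the switch set apart a single mouse and not a genotype. In Gm14391, ENSMUST00000109058 held 276 counts in mouse Het_1024 and 305 in mouse WT_1016 and was at 0 in the other 4, whereas ENSMUST00000165892, wholly contained in it, was at 0 in mouse WT_1016 only. The pair had 558, 403 and 385 counts in the Slc13a4+/- mice and 305, 279 and 372 in the wild-type mice.

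Opposite values were also found between genes. Gm4724 (chr2:175422300-175435807, minus strand) and Gm14308 (chr2:176613364-176636344, minus strand) share 93.1% of the stretches of Gm4724. Gm4724 was at 10.8, 4.75 and 15.8 CPM in the Slc13a4+/- mice and at 12.5, 12.6 and 17.4 CPM in the wild-type mice. Gm14308 was at 22.1, 27.5 and 14.5 CPM in the Slc13a4+/- mice and at 19.5, 16.1 and 12.4 CPM in the wild-type mice. Mouse Het_1025 had the lowest Gm4724 and the highest Gm14308, and mouse WT_1026 the highest Gm4724 and the lowest Gm14308. A transcript of Gm4724 of 1198 bases, ENSMUST00000152941, was at 0 counts in mouse Het_1025 and at 439 to 886 in the others.

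Their log2 fold changes, -0.44 (SE 0.34) for Gm4724 and 0.42 (SE 0.23) for Gm14308, were the lowest in the cluster and the second highest. Without mouse Het_1025 they were -0.09 and 0.20, and without mouse Het_1027 they were -0.85 and 0.63. Without mouse WT_1026 they were -0.26 and 0.26. Summed, the 2 genes had 32.9, 32.2 and 30.3 CPM in the Slc13a4+/- mice and 32.0, 28.7 and 29.7 CPM in the wild-type mice. The sum varied by 5.29% over the 6 mice (coefficient of variation), against 35.8% for Gm4724 and 29.7% for Gm14308 alone. The log2 ratio of the sums was 0.08, and the genotypes overlapped.

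**Figure D2:**
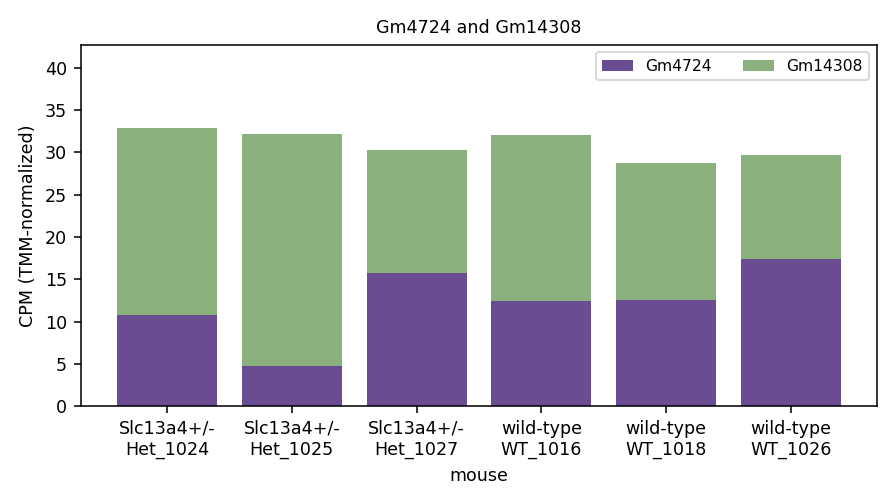
CPM of Gm4724 and Gm14308 (y axis, stacked) in each mouse (x axis). The parts vary from 4.75 to 17.4 CPM for Gm4724 and from 12.4 to 27.5 CPM for Gm14308, while the sum stays between 28.7 and 32.9 CPM.

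Members were next summed over groups of close copies, in which a gene shared at least 50% of the stretches of the gene with fewer. This gave 10 groups holding 31 genes, and 13 members stood alone. The largest group held Gm4631, Gm4724, Gm11007, Gm2026, Gm14434, Gm14308, Gm14305 and Gm14410, the same 8 members whose KRAB exon is identical. It had 292, 292 and 283 CPM in the Slc13a4+/- mice and 260, 290 and 283 CPM in the wild-type mice, with a log2 ratio of 0.06 and overlap. The group of Gm14325, Gm14326 and Gm14399 had 53.8, 52.8 and 52.7 CPM against 47.1, 56.6 and 50.1 CPM, with a log2 ratio of 0.05. The 3 wild-type mice spanned the Slc13a4+/- values in it, so the lack of overlap seen for Gm14325 alone was not present in the sum over its copies.

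Of the 9 groups above 0, all had a log2 ratio above 0, and 4 did not overlap between the genotypes, each higher in Slc13a4+/- mice. Over all single genes tested, 7.26% were higher and 7.69% lower without overlap. Gm14391 and Gm6710 together had 58.6, 76.2 and 61.996 CPM against 45.5, 54.6 and 48.7 CPM, a log2 ratio of 0.40. Zfp966, Zfp968 and Zfp969 together had 28.1, 30.0 and 29.4 CPM against 20.0, 25.2 and 25.7 CPM, a log2 ratio of 0.30. The group of Gm14288, Gm14327, Gm14435 and Gm14440 had a log2 ratio of 0.19 and that of Zfp965 and Zfp973 one of 0.11. The coefficient of variation over the 6 mice had a median of 10.8% for the 23 members above 0 with over 50% shared stretches and of 8.97% for the 16 others, and of 5.90% over all genes tested.

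Across the cluster, Slc13a4+/- and wild-type mice differed little. The edgeR quasi-likelihood test called 0 of the 39 members at an adjusted p under 0.1, and it called 0.00585% of 17096 genes. At an unadjusted p under 0.05 there were 9 members higher in Slc13a4+/- mice and 0 lower, against 852 and 713 of all genes. DESeq2 with average transcript lengths as offsets called 1 member, Gm14391, and 0.487% of 17659 genes, and without the offsets it called 0 members and 0.311% of genes. With no filter on low counts edgeR called 1 member, again Gm14391, and 0.513% of genes. Without mouse WT_1026 it called 1, 2210418O10Rik, and 1.29% of genes. The log2 fold changes ran from -0.44 to 0.52, with 31 above 0 and 8 below, and their median was 0.12. Over all genes the median was -0.0045 and 47.8% lay above 0. Without mouse WT_1016 the median of the members was 0.066, and without mouse WT_1026 it was 0.14. Since members share reads, their fold changes are not independent of each other.

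**Figure D3:**
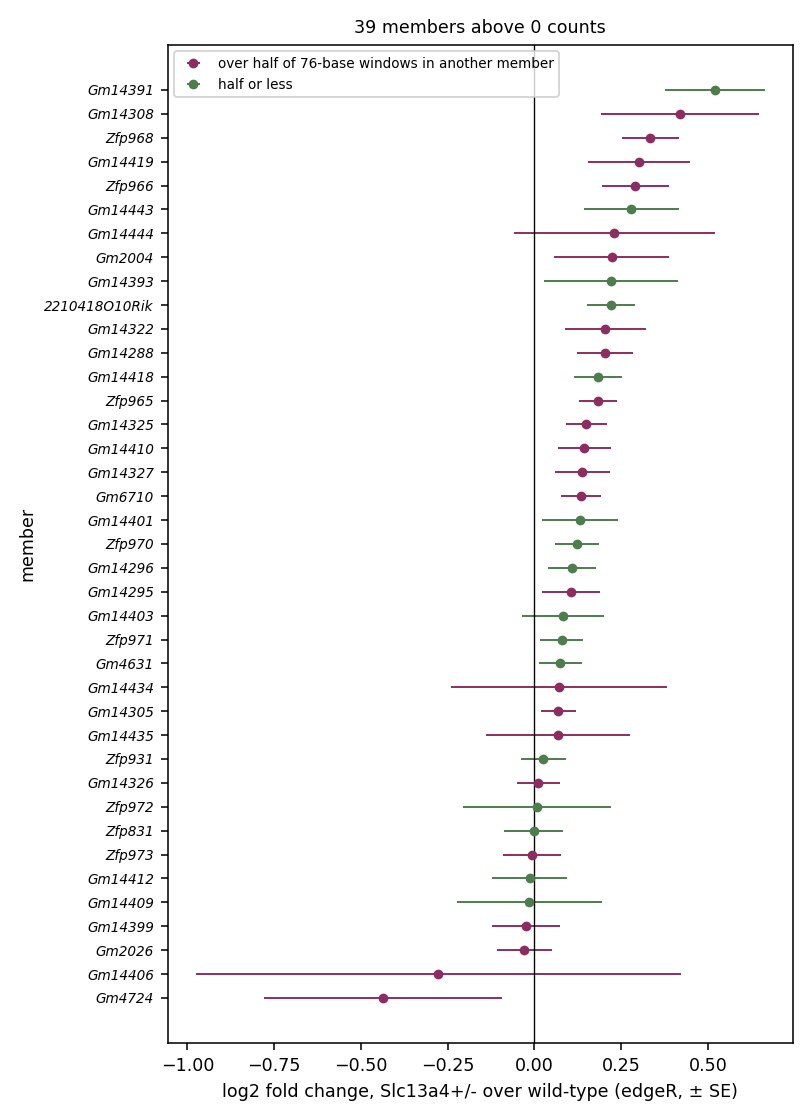
Log2 fold change (x axis, edgeR, with SE) of the 39 members with counts (y axis), coloured by whether over 50% of their 76-base stretches occur in another member. Values run from -0.44 (Gm4724) to 0.52 (Gm14391), and 31 lie above 0.

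For 10 members the lowest Slc13a4+/- mouse exceeded the highest wild-type mouse, and for 0 members the order was the reverse. Over all genes these shares were 7.26% and 7.69%. The 10 were Gm14391, Zfp968, Zfp966, 2210418O10Rik, Gm14288, Gm14418, Zfp965, Gm14325, Gm14327 and Zfp970. Zfp968 was at 7.10, 6.96 and 7.65 CPM in the Slc13a4+/- mice and at 5.18, 6.04 and 6.00 CPM in the wild-type mice, with a log2 fold change of 0.33 (SE 0.08). Zfp966 was at 21.0, 23.0 and 21.7 CPM against 14.9, 19.2 and 19.7 CPM, with a log2 fold change of 0.29 (SE 0.10). Their adjusted p in edgeR was 0.499 for each, the smallest of the cluster. Leaving out mouse Het_1027 or mouse WT_1018 raised the count to 17, when the shares over all genes were 10.6% and 12.1%.

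At the other end, Gm2026 had a log2 fold change of -0.03 (SE 0.08), Gm14399 one of -0.02 (SE 0.10) and Gm14409 one of -0.02 (SE 0.21). Gm14406, the least abundant member, had one of -0.28 with an SE of 0.70. The outermost members also sat near 0, with 0.00 (SE 0.08) for Zfp831 and 0.03 (SE 0.06) for Zfp931. Gm4631, the member with the most counts, was at 147, 154 and 144 CPM against 127.4, 149 and 146 CPM, a log2 fold change of 0.07 (SE 0.06). Gm14419 had a log2 fold change of 0.30 (SE 0.15), at 7.43, 8.67 and 7.94 CPM against 4.97, 6.72 and 7.77 CPM.

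Gm14391 (ENSMUSG00000078903, chr2:175191065-175206917, minus strand) had the highest fold change of the cluster. Its level was 39.5, 59.0 and 44.1 CPM in the Slc13a4+/- mice and 29.1, 37.3 and 33.0 CPM in the wild-type mice. All 3 Slc13a4+/- mice lay above the wild-type mice, and mouse Het_1025 was the highest by far. In edgeR its log2 fold change was 0.52 (SE 0.14, adjusted p = 0.499), and in DESeq2 with length offsets it was 0.42 (adjusted p = 0.044). DESeq2 without the offsets gave 0.52 (adjusted p = 0.553), and edgeR with them gave 0.42 (adjusted p = 0.581). DESeq2 with length offsets called it in 3 of the 6 fits that left out a mouse, and not without mouse Het_1025 or mouse WT_1016 or WT_1026.

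Most of Gm14391 was a transcript annotated as a retained intron. ENSMUST00000151240, of 5536 bases, held 69.7% to 80.6% of the gene's level in a mouse and was at 28.3, 47.5 and 34.7 CPM in the Slc13a4+/- mice against 20.3, 27.5 and 24.04 CPM in the wild-type mice. The other 5 transcripts together had 11.2, 11.5 and 9.39 CPM against 8.81, 9.78 and 8.98 CPM, which overlapped, with a log2 ratio of 0.22. Retained-intron transcripts of all genes took 2.03%, 2.45% and 2.15% of counts in the Slc13a4+/- mice and 1.86%, 2.02% and 1.81% in the wild-type mice, again without overlap and again highest in mouse Het_1025. Their part in the level of Gm14391 was not tested.

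The summed level of the 44 members was 750, 774 and 741 CPM in the Slc13a4+/- mice and 633, 725 and 720 CPM in the wild-type mice. The means were 755 ± 17.4 and 693 ± 51.6 CPM (SD, n = 3 each), a ratio of 1.09 and a log2 ratio of 0.12, and the genotypes did not overlap. A sum in CPM does not depend on how reads were divided between copies within the cluster. It can depend on division with transcripts outside the cluster, which held 28.2% of the stretches of Zfp966 and 0.809% of those of Gm4631. The log2 ratio was 0.14 on library totals, 0.14 in TPM, 0.12 without Gm14325, 0.10 without Gm14391 and 0.10 without the 5 retained-intron transcripts, and the genotypes did not overlap under any of these. Without mouse WT_1016 it was 0.064, with 741 to 774 CPM against 720 and 725 CPM. The members made up 0.0724% of counts.

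**Figure D4:**
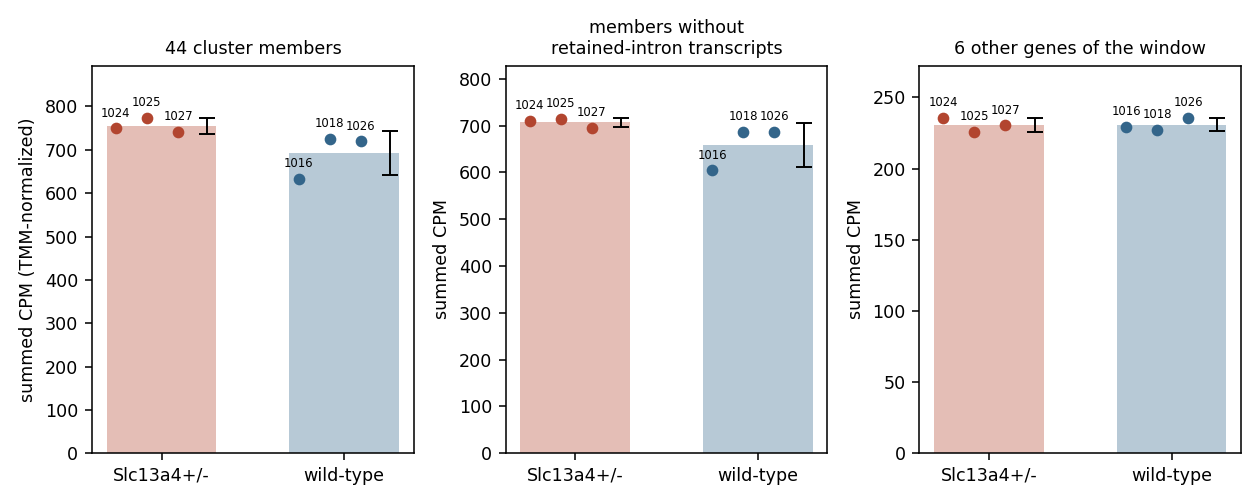
Summed CPM (y axis) of the 44 members, of the members without retained-intron transcripts, and of the 6 other protein-coding genes of the window, by genotype (x axis). Points are mice with their numbers, bars are means and error bars SD (n = 3). The members' 741 to 774 CPM in Slc13a4+/- mice lie above 633 to 725 CPM in wild-type mice, and the other genes of the window overlap.

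Wild-type mouse WT_1016 carried much of this difference. It was the lowest of the 6 mice for 26 of the 39 members, against 19.9% of all genes, and its level relative to the mean of the 6 mice had a median of -0.19 on the log2 scale over the members. The other 5 mice had medians between -0.016 (mouse WT_1026) and 0.093 (mouse Het_1025). Mouse Het_1025 was the highest for 15 members, against 18.2% of all genes. Mouse WT_1016 is also the mouse with Ddx3y, and as no other mouse has it, a difference of that kind cannot be told apart from the single mouse. Mice WT_1016 and WT_1018 have the lowest animal numbers. With that run as a covariate, the genotype effect rested on the Slc13a4+/- mice against mouse WT_1026 alone. The median log2 fold change of the members was then 0.063.

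**Figure D5:**
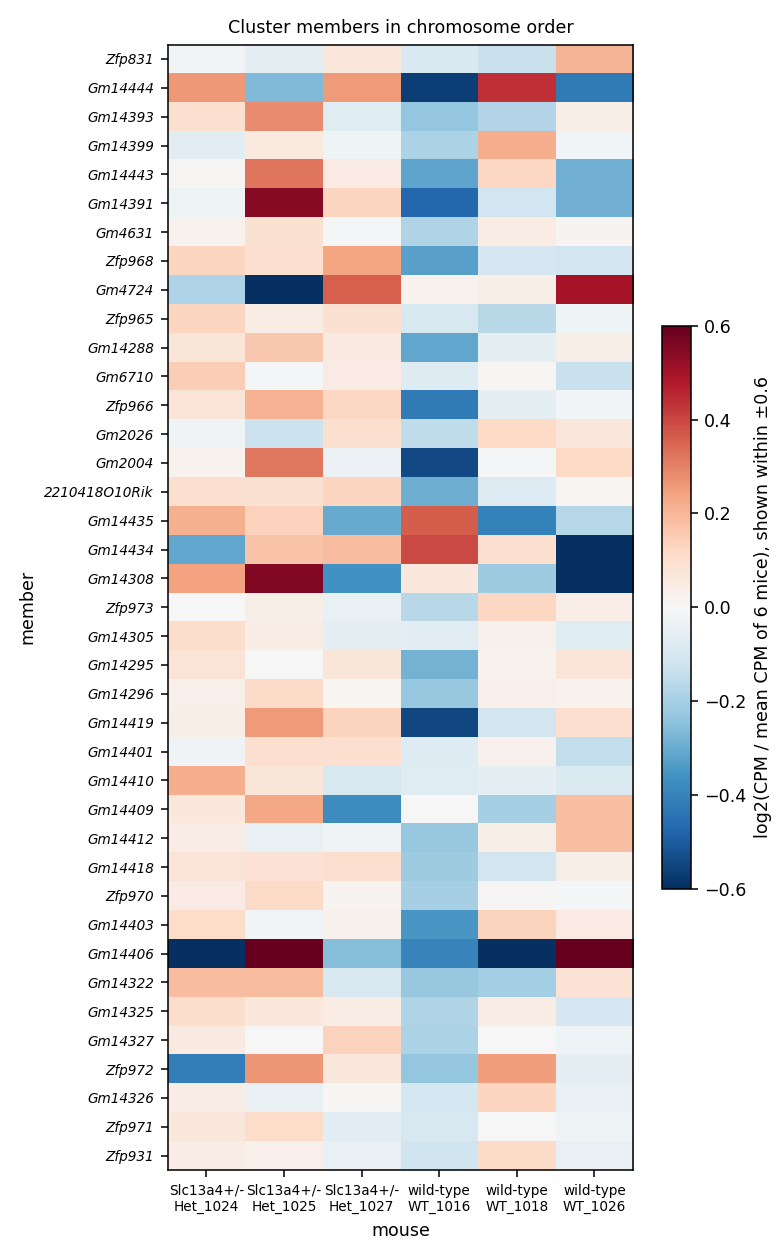
CPM of each of the 39 members relative to its mean over the 6 mice (colour, log2 scale) by member in chromosome order (y axis) and mouse (x axis). The column of mouse WT_1016 is the lowest for 26 members, and Gm4724 and Gm14308 show opposite colours in mice Het_1025, Het_1027 and WT_1026.

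Markers of other cells differed between the mice as well. The summed level of 3 microglial markers was 126 to 134 CPM in the Slc13a4+/- mice and 139 to 141 CPM in the wild-type mice, with 2 of the 3 not overlapping. The 3 choroid plexus markers summed to 370 to 431 CPM and to 449 to 456 CPM, with 1 not overlapping, and the 3 oligodendrocyte markers to 6184 to 7216 CPM and to 7016 to 7859 CPM, with 2 not overlapping. Every non-overlapping marker was lower in Slc13a4+/- mice, the order of 7.69% of all genes tested. The 2 blood markers summed to 409 to 505 CPM and to 382 to 634 CPM, with 0 not overlapping. No marker of these lists had a mean of 0. Their part in the levels of the cluster was not tested, and in whole forebrain a smaller number of cells cannot be told apart from less RNA per cell.

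The other genes of the region and of the pathway were set beside the cluster. The 6 other protein-coding genes of the window (Edn3, Phactr3, Sycp2, Ppp1r3d, Fam217b and Cdh26) summed to 236, 226 and 230 CPM in the Slc13a4+/- mice and to 230, 227 and 236 CPM in the wild-type mice, a log2 ratio of 0.00. Phactr3, which encodes a regulator of protein phosphatase and actin, was at 146, 141 and 143 CPM against 142, 140 and 145 CPM. Neither edgeR nor DESeq2 called any of the 6, 0 had an unadjusted p under 0.05 in edgeR, and their median log2 fold change was 0.0003. Without overlap between the genotypes, 1 of the 6 was higher in Slc13a4+/- mice (Sycp2) and 2 were lower (Ppp1r3d and Cdh26), beside 7.26% and 7.69% of all genes tested.

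Of 369 Zfp genes outside the window, 233 had a log2 fold change above 0 and 136 below, with a median of 0.024. Among them 49 were higher without overlap and 17 lower, beside 7.26% and 7.69% of all genes tested. The edgeR test called 0 of them. At an unadjusted p under 0.05 in edgeR, 32 were higher and 5 lower, against 852 and 713 of 17096 genes. DESeq2 with length offsets called 3, each higher. Zfp459 was at 5.28, 6.04 and 4.73 CPM in the Slc13a4+/- mice and at 3.48, 3.92 and 3.94 CPM in the wild-type mice (DESeq2 adjusted p = 0.036). Zfp40 was at 24.3, 24.6 and 24.1 CPM against 19.3, 21.5 and 21.5 CPM (adjusted p = 0.073), and Zfp280d at 51.0, 53.5 and 52.9 CPM against 46.7, 50.2 and 52.4 CPM (adjusted p = 0.094). Whether the members differed from these genes in their response was not tested.

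The 26 tested genes for the machinery that KRAB zinc finger proteins recruit gave 9 log2 fold changes above 0 and 17 below, with a median of -0.0061. None was called by edgeR or DESeq2. In edgeR 0 were higher and 3 were lower with an unadjusted p under 0.05, against 852 and 713 of 17096 genes. Trim28, which encodes the corepressor itself, was at 129, 126 and 131 CPM in the Slc13a4+/- mice and at 137, 132 and 126 CPM in the wild-type mice. Setdb1, which encodes the histone methyltransferase that TRIM28 brings in, was at 47.5, 50.1 and 50.1 CPM against 49.1, 50.1 and 50.5 CPM. Cbx5, which encodes a heterochromatin protein that binds the methylated histone, was at 401, 397 and 400 CPM against 382, 391 and 425 CPM, and Chd3, a chromatin remodeller of the same pathway, at 661, 677 and 677 CPM against 651, 630.5 and 738 CPM. These 4 genes overlapped between the genotypes. Of the 26, 0 were higher and 3 were lower without overlap, beside 7.26% and 7.69% of all genes tested. The 3 were Cbx1, Mta2 and Smarcad1, named after their values were seen.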

How the data were processed

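For each of the 6 mice the authors deposited, per transcript, estimated counts, TPM and lengths from Salmon (v1.2.0), run on stranded, rRNA-depleted libraries with mapping validation on and a correction for GC bias. The TPM values deposited by the authors sum to 1000000 per mouse. Which transcripts and build its index held is not stated in the labels or the paper. Identifiers were matched to GENCODE M21 (GRCm38), which left out 1162 of 117135 transcripts, holding 0.620% to 0.645% of counts. Estimated counts were summed per gene and rounded. Salmon divides reads that match several transcripts, which limits the precision of close copies.

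Genes were tested with the quasi-likelihood test of edgeR 4.0.16 in R 4.3.3 (default filter on low counts, TMM, Benjamini-Hochberg adjusted p under 0.1, the study's threshold). The DESeq2 Wald test (DESeq2 1.42.0), which the study used, was an alternative. Both were tested on simulated counts drawn independently for each gene or transcript. Such counts hold no division of reads between copies, so they cannot show how the tests behave for close copies. Sums over members were given no test. Nothing in the labels says which mice share a litter. The p-values set the difference between genotypes against the spread between these mice, and do not include the uncertainty of the division of reads. Copies were compared by shared 76-base stretches, the read length, and motif counts cover the 250 bases before the RefSeq start. KRAB and C2H2 patterns were searched in translated coding sequences (Python 3.11.15).

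Members, gene lists and tests were chosen with earlier results of these data known. Named with values were Gm14325, the members sharing most with it, the 8 of highest TPM, the 5 highest and 5 lowest fold changes, called genes, the members at the window's ends and, of the other lists, called genes and the 2 most abundant. Gm14322, 2210418O10Rik, Zfp972, Trim28, Setdb1 and other genes of the text were added after their values were seen.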

Additional observations from a re-analysis of the deposited data

How the results depend on the processing

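No paired analysis was possible because the animal numbers are not shared between the genotypes and no litter is given. The count of members called, 0 in edgeR, was 1 in DESeq2 with length offsets and 1 in edgeR without a filter on low counts (Gm14391 each time). Leaving out a mouse gave 0 to 1 in edgeR, the 1 being 2210418O10Rik without mouse WT_1026, where 1.29% of all genes were called. It gave 0 to 3 in DESeq2 with length offsets, a check added after the data were seen. The 3 were 2210418O10Rik, Gm14288 and Zfp966 without mouse WT_1026, where 6.54% of all genes were called. The count stayed at 0 under other size factors, length offsets in edgeR, a filter at 1 CPM and groups of copies as units. Member transcripts called, 0 in edgeR, were 2 in DESeq2, where 0.711% of all transcripts were called. They were 1 without a filter and 0 to 1 when a mouse was left out (1 without mouse WT_1016). For these settings the share of all transcripts called is not given here, so the counts cannot be set against a background. Genes of the 3 comparison lists called, 0 in edgeR, were 3 in DESeq2 and 0 to 11 when a mouse was left out (11 without mouse WT_1026). The log2 ratio of the cluster total, 0.12, ran from 0.064 to 0.16 when a mouse was left out and from 0.094 to 0.14 under other units and member lists. The group of Gm14325, with a log2 ratio of 0.05, shrank to Gm14325 alone with 0.15 when 80% of stretches had to be shared, had 0.13 when 20% had to be shared, 0.13 with stretches of 31 bases and 0.10 in TPM, ran from -0.0074 to 0.13 when a mouse was left out, and had -0.0074 without mouse WT_1016. Non-overlapping members ran from 10 to 17 higher and from 0 to 1 lower when a mouse was left out. Over all genes the shares then ran from 10.6% to 18.9% higher and from 11.3% to 18.6% lower. Without mouse WT_1026 there were 14 members higher, beside 18.9% of all genes. The run of animal numbers as a covariate left mouse WT_1026 as the only wild-type mouse behind the genotype effect. In that fit, 2 log2 fold changes of named members moved by more than the spread between mice, to 0.04 for Gm14419 and to -0.20 for Zfp831. Counts of a gene with close copies limit what depth can settle. A read pair that lies wholly in shared stretches cannot be assigned by its sequence at any depth.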
